A study of Mus musculus with 3 samples.

Results

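Zic1, Zic2, Zic4 and Zic5 encode zinc finger transcription factors of the ZIC family, and they were chosen by name. They are 4 of the 21938 protein-coding genes that could be placed on the mouse chromosomes. Enriched ChIP-seq regions were read from 3 lists, all made in F123 cells, a male embryonic stem cell (ESC) line from an F1 cross of S129/Jae and Cast mice. The 3 groups were H3K27me3, the histone mark written by Polycomb repressive complex PRC2, and RNA polymerase II carrying a phosphate on serine 5 (Pol2-S5p) or on serine 7 (Pol2-S7p) of its C-terminal domain. All 3 came from the same untreated line, which was grown on mouse feeder fibroblasts and passaged without them before harvest. Each group had 1 library, so no value has a replicate error and no comparison could be tested. The alleles were not separated in these lists, and the number of reads behind each region is unknown because the files hold regions rather than reads. Each mark was read from a separate library of many cells. Overlapping regions therefore do not show that the marks sat on the same chromatin.

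ZIC proteins bind DNA through C2H2 zinc fingers closely related to those of the GLI factors of Hedgehog signalling. In the mouse embryo they pattern the dorsal neural tube, the cerebellum and the neural crest, the migrating cells that leave the edge of the neural plate. Zic1 and Zic4 act in the developing cerebellum, Zic2 is required for forebrain midline formation and neural tube closure, and Zic5 for neural crest and neural tube closure. In ESCs, promoters of such developmental genes are often held by Polycomb together with Pol2-S5p. Pol2-S7p is the form usually associated with productive transcription.

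The genes form 2 pairs that are transcribed in opposite directions from neighbouring starts. Zic1 (minus strand) and Zic4 (plus strand) lie on chromosome 9 of mm10, at chr9:91358058-91365810 and chr9:91362413-91389348, and their annotated bodies overlap by 3398 bp. Zic5 (minus strand) and Zic2 (plus strand) lie on chromosome 14, at chr14:122456795-122465677 and chr14:122475435-122479852. The starts of their longest transcripts are 3202 bp apart for Zic1 and Zic4 and 9758 bp apart for Zic5 and Zic2.

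The sequences just before the RefSeq starts are shown as the promoter DNA of the coding transcripts. For Zic1 and Zic4 they lie outside the windows, at starts inside the gene, from which the states were first read. RefSeq gave them on GRCm38.p6, the assembly also called mm10, for 3 of the 4 members. Each is written 5′ to 3′ in the direction of its gene and ends before the first annotated untranslated base. Capitals mark matches on either strand to 4 short motifs. These are the GC box, spelled GGGCGG, the CCAAT box, spelled by its name, the TATA box, spelled TATAAA, and the CACCC element, spelled CCACCC. The stretches are chr9:91365811-91366018 on the minus strand for Zic1, chr9:91368722-91368811 on the plus strand for Zic4, which lies in an exon of a noncoding Zic4 transcript, and chr14:122465678-122465908 on the minus strand for Zic5.
Zic1: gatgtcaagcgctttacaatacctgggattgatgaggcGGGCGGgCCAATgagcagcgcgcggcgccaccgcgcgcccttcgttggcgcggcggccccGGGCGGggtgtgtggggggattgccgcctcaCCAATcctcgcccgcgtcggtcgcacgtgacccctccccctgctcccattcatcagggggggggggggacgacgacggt
Zic4: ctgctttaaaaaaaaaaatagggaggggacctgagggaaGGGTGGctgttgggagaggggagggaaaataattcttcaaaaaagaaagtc
Zic5: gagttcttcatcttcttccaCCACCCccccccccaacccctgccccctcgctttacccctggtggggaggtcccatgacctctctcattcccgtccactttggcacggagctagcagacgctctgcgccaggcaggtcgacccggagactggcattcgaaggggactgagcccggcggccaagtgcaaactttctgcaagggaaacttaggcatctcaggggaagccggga

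These promoters differed in base composition. Over the 250 bases before the RefSeq start, Zic1 held 27 CG dinucleotides, more than 91.4% of the 32851 promoters in the RefSeq table. Zic5 held 11, more than 64.4% of them, and Zic4 held 4, more than 37.8%. The median promoter held 6. The G and C content was 66.0% at Zic1, 62.4% at Zic5 and 44.4% at Zic4, with a median of 52.4% over the table. All 250 bases at Zic4 lay in annotated exons, against 42 at Zic1 and 19 at Zic5. The comparison thus sets exon sequence at Zic4 beside mostly other sequence at Zic1 and Zic5.

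Zic1 had 2 GC boxes and 2 CCAAT boxes, none overlapping another. Zic4 and Zic5 had 1 CACCC element each, that of Zic4 on the antisense strand. Among all 32851 promoters, 32.7% held a GC box, 33.8% a CCAAT box, 12.4% a TATA box and 28.1% a CACCC element within the same 250 bases. A match describes the letters and not a bound site.

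The first question was which marks the members carried at their starts. A window of 2 kb centred on a start was positive for a mark when an enriched region touched it. Promoter states were named as follows. Windows with H3K27me3 and Pol2-S5p but no Pol2-S7p are named PRC-repressed (PRCr), those with all 3 marks Polycomb-Active (PRCa), and those with both polymerase marks but no H3K27me3 Active. Where a gene had several starts, the one with the longest Pol2-S5p cover was used first, with ties settled by the longest Pol2-S7p cover.

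All 4 members carried H3K27me3, against 37.7% of protein-coding genes. All 4 also carried Pol2-S5p, against 69.9% of protein-coding genes, and 3 of 4 carried Pol2-S7p, against 60.4%. The rule favours starts with polymerase cover, in the members and in the background alike. The Pol2-S7p of Zic4 was counted only through the rule for ties. Zic1 was PRCr, a state of 7.66% of protein-coding genes, and Zic2, Zic4 and Zic5 were PRCa, a state of 23.9%. Among all protein-coding genes with H3K27me3 and Pol2-S5p, 75.7% also had Pol2-S7p, so 3 of 4 is close to the background of such genes. No member was Active, Inactive (no mark) or had H3K27me3 only, states of 35.9%, 23.5% and 6.02% of protein-coding genes. The members of a pair share regions and the genes lie in only 2 places, so these are not 4 independent observations.

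The rule read Zic1 at a start inside the gene, that of the noncoding Zic1-203 at position 91363054, and its state was the same at all of its starts. The state of Zic4 turned on which of its starts was read. The start that the rule picked was that of Zic4-202, a short noncoding transcript that begins inside the gene at position 91382410. There Pol2-S5p covered the whole window and Pol2-S7p 790 bp, or 39.5%, of it. The start of the coding Zic4-208, at position 91362413, had the same Pol2-S5p cover but no Pol2-S7p, and was PRCr. Pol2-S7p cover thus settled the choice between them. The longest transcript, the coding Zic4-204, starts at position 91368970, where H3K27me3 covered 100% of the window and neither polymerase mark touched it. By the starts of the longest transcripts, Zic1 was PRCr, Zic4 had H3K27me3 only, and Zic2 and Zic5 were PRCa, beside 7.38%, 7.14% and 24.8% of protein-coding genes in those states. Read this way, H3K27me3 lay at 4 of 4 members (39.5% of protein-coding genes), Pol2-S5p at 3 (67.1%) and Pol2-S7p at 2 (59.2%). None was Active (33.7%) or Inactive (25%), and both of the PRCa members were among 3 with H3K27me3 and Pol2-S5p, a group in which 77.0% of protein-coding genes had Pol2-S7p.

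Read over every annotated start, the chromosome 9 genes stood in H3K27me3 throughout and the chromosome 14 genes in both polymerase marks throughout. Of the 19 annotated transcripts, 18 started in H3K27me3, 11 in Pol2-S5p and 5 in Pol2-S7p. No share over all annotated starts was taken for comparison. Of the 19 starts, 12 belong to Zic4, so the totals count the same regions repeatedly. The 3 Zic1 starts were all PRCr. Of the 12 Zic4 starts, 8 had H3K27me3 only, 3 were PRCr and 1 was PRCa. Both Zic2 starts were PRCa, and of the 2 Zic5 starts 1 was PRCa and 1, inside the gene at position 122460021, had no H3K27me3. Starts in more than 1 state were found in 37.5% of protein-coding genes with several transcripts, so the mixture at Zic4 and Zic5 is common.

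**Figure D1:**
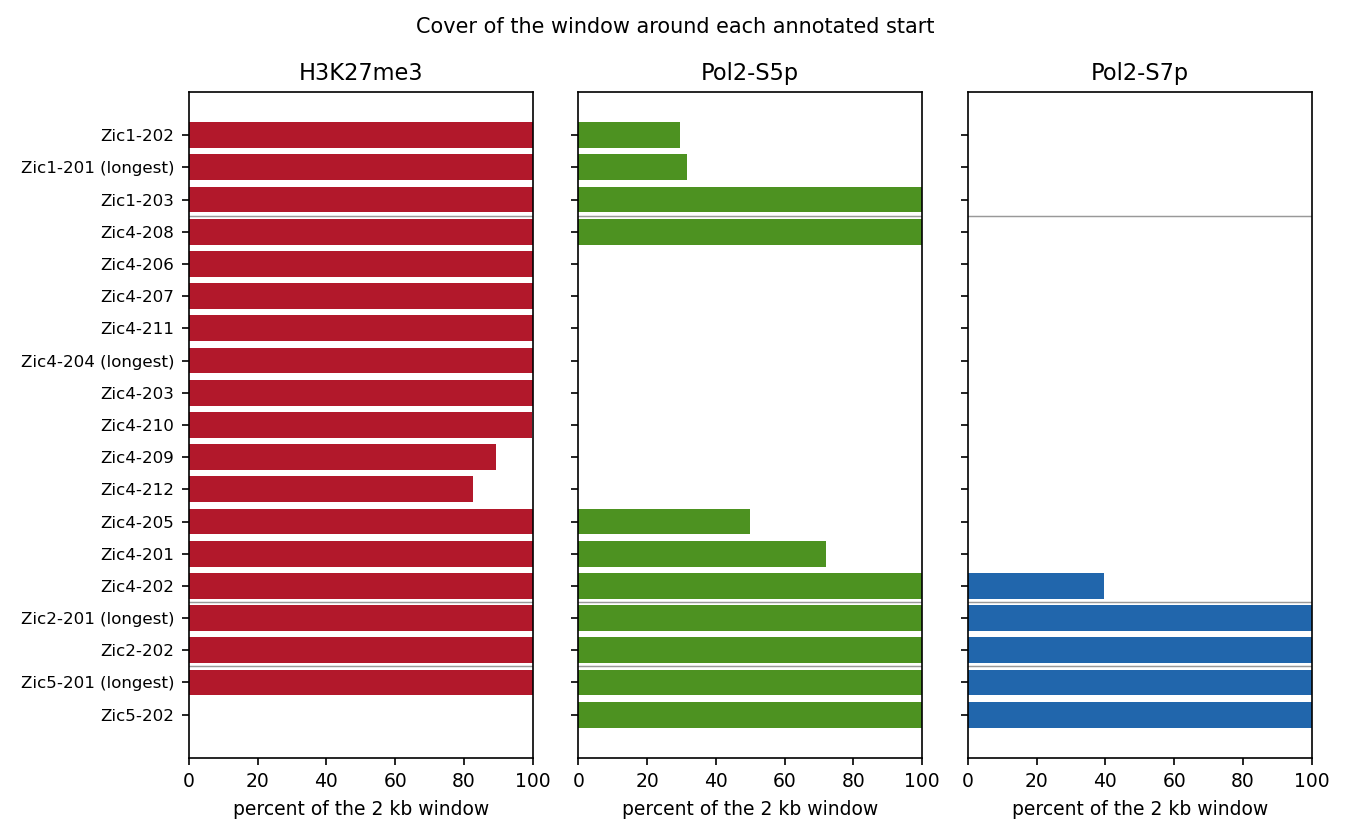
Cover of the 2 kb window around each annotated start of the 4 genes, in percent of the window, with 1 panel for each mark, 1 bar for each transcript and grey lines between genes (1 library per mark, no error bars). H3K27me3 is missing only at Zic5-202, and Pol2-S7p is present only at Zic4-202, where it covers 39.5%, and at the starts of Zic2 and Zic5, where it covers 100%.

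At Zic1, the cerebellar and neural crest factor of the chromosome 9 pair, Polycomb covered everything and polymerase only part. The start of the longest transcript, Zic1-201, lay in an H3K27me3 region of 21.8 kb (chr9:91350200-91371999) that ran 6231 bp upstream and 15568 bp downstream of it. A Pol2-S5p region of 4 kb (chr9:91361400-91365399) began 369 bp inside the gene from that start and covered 632 bp, or 31.6%, of the window. It lay over 78.7% of the first exon, all of the second and 9.89% of the third. The nearest Pol2-S7p region was 15632 bp away, inside Zic4.

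The Pol2-S5p region of Zic1 also lies in the part of the annotation where Zic1 and Zic4 overlap, and 2987 of its 4000 bp fall in Zic4 as well. It held the most upstream annotated Zic4 start (Zic4-208, position 91362413), whose window it covered completely. Region lists carry no strand, so to which gene this polymerase belongs cannot be told apart. Its score was 10.7, next to the list median of 10.8, in the unit of the peak finder, which the sources used here do not state.

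At Zic4, the marks changed along the gene. The H3K27me3 region of Zic1 continued over the first 9587 bp of Zic4, ended after the cluster of starts around the first exon, and was followed by a gap of 4600 bp that held the second of the 5 exons of Zic4-204. A second H3K27me3 region of 30 kb (chr9:91376600-91406599) covered the remaining 3 exons. Inside it lay 2 Pol2-S5p regions of 2.6 and 3.8 kb, which covered exons 3 and 4 completely and exon 5 not at all. Between the Pol2-S5p region in Zic1 and the first of these, 12800 bp had no Pol2-S5p, and the first exon of Zic4-204 lay in that stretch.

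One Pol2-S7p region was found over the pair, 800 bp wide (chr9:91381400-91382199) and intronic in every annotated Zic4 transcript that spans it. It ended 211 bp before the start of Zic4-202. Its score of 8.53 was above only 26.1% of the Pol2-S7p list. This region is what made Zic4 PRCa, and its DNA was rich in CG. It held 71 CG dinucleotides, more than 82.9% of the 1784 Pol2-S7p regions of the same width, whose median was 36, and 10.8% of it was masked as repeat. The middle of the region, chr9:91381700-91381899 on the plus strand of GRCm38.p6, is shown with capitals at matches to the 4 motifs named above.
Zic4 Pol2-S7p region: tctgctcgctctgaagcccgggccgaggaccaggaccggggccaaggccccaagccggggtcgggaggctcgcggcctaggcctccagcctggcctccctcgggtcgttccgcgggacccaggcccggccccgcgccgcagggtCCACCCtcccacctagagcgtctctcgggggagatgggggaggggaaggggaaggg
Over its whole length the region held 3 GC boxes, 4 CACCC elements and 1 CCAAT box. Of the Pol2-S7p regions of 800 bp, 60.5% held a GC box, 59.5% a CACCC element, 51.8% a CCAAT box and 17.9% a TATA box.

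At Zic2, a regulator of forebrain development, all 3 marks covered the gene from start to end. The start lay in an H3K27me3 region of 37.0 kb (chr14:122461800-122498799), a Pol2-S5p region of 13.8 kb (chr14:122472200-122485999) and a Pol2-S7p region of 31.2 kb (chr14:122453400-122484599). Each of the 3 exons was covered completely by each mark. Past the annotated end of Zic2, Pol2-S7p ran on for 4747 bp, Pol2-S5p for 6147 bp and H3K27me3 for 18947 bp.

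At Zic5, the partner of Zic2 on the other strand, H3K27me3 and the polymerase marks parted within the gene. The start lay in the same H3K27me3 and Pol2-S7p regions as that of Zic2, and in a Pol2-S5p region of its own of 20.2 kb (chr14:122449800-122469999). H3K27me3 ended 3877 bp downstream of the start. It therefore covered the first of the 2 exons of Zic5-201 completely and the second not at all, while both polymerase marks covered both exons. The 5005 bp without H3K27me3 carried Pol2-S5p and Pol2-S7p throughout.

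The scores of the chromosome 14 regions were also higher within their lists. The Pol2-S5p regions at Zic5 and Zic2 scored 16.5 and 15.4, above 70.1% and 67.4% of the list, and the Pol2-S7p region scored 17.9, above 67.7%. The 3 Pol2-S5p regions over Zic1 and Zic4 scored 10.7, 7.72 and 8.99, above 49.6%, 30.5% and 39.4%. In H3K27me3 the pairs were close. The regions of 21.8 and 30 kb at Zic1 and Zic4 scored 14.3 and 12.4 and were wider than 84.8% and 88.5% of the list, and the region at Zic2 and Zic5 scored 13.8 and was wider than 90.5%.

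**Figure D2:**
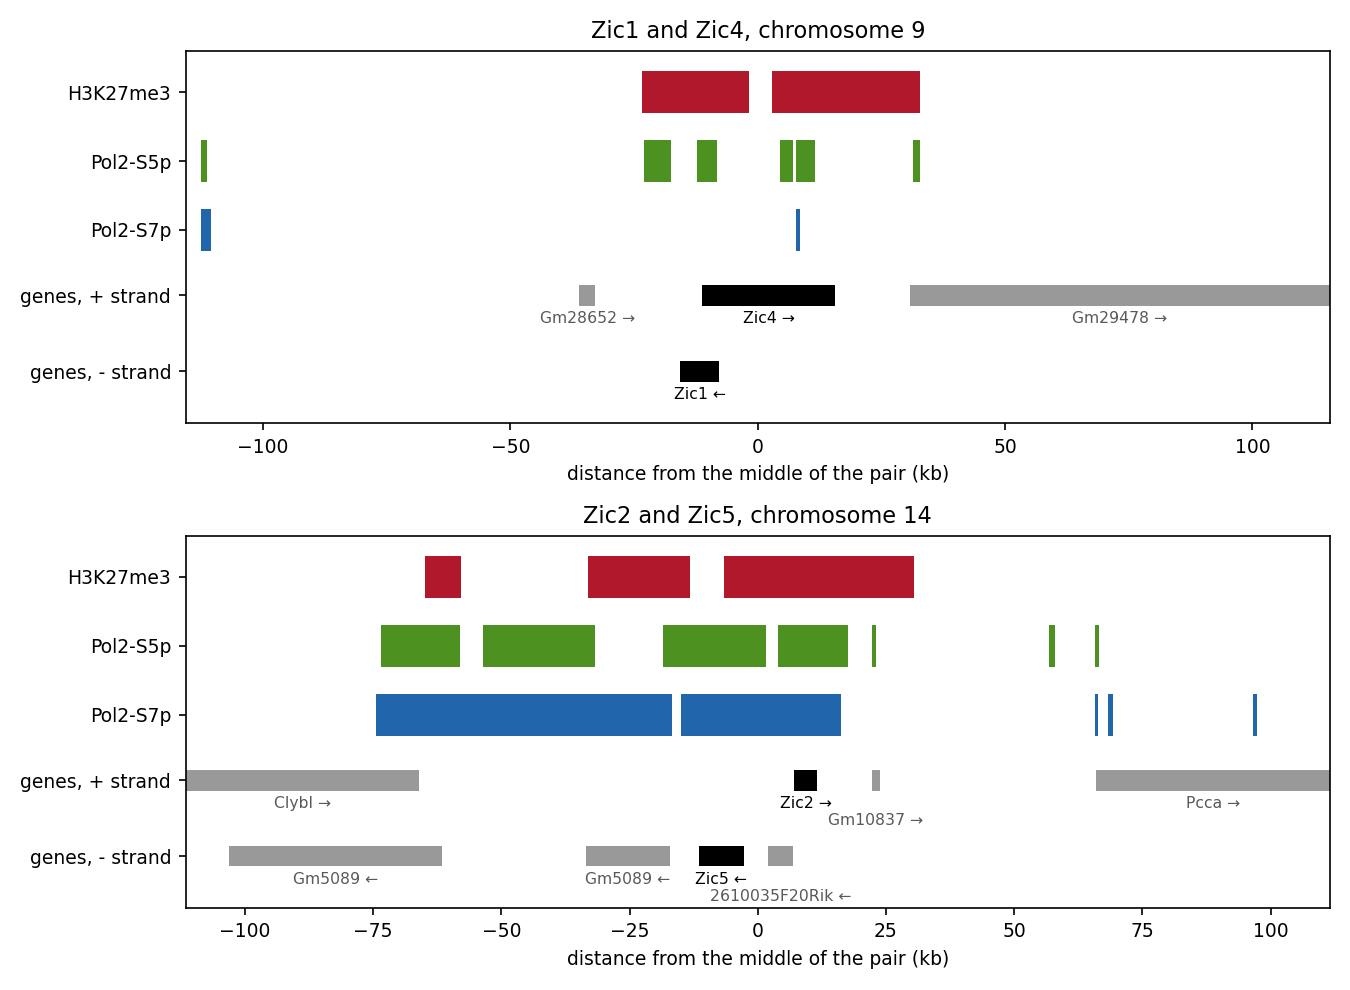
Enriched regions of the 3 marks (coloured bars) over each pair and 100 kb on either side, with distance from the middle of the pair in kb, members in black, other annotated protein-coding and long noncoding genes in grey, and arrows for the direction of transcription. Pol2-S7p is 1 bar of 0.8 kb within Zic1 and Zic4 and 1 bar of 31.2 kb over Zic2 and Zic5, while H3K27me3 lies over both pairs.

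The second question was how much of each gene lay under each mark. H3K27me3 covered 100% of Zic1, 82.9% of Zic4, 100% of Zic2 and 43.7% of Zic5. Pol2-S5p covered 51.6% of Zic1 and 34.8% of Zic4, and 100% of Zic2 and of Zic5. Pol2-S7p covered 0% of Zic1 and 2.97% of Zic4, and again 100% of Zic2 and of Zic5. In both polymerase marks, Zic2 and Zic5 thus had more cover than Zic1 and Zic4, while in H3K27me3 the pairs were mixed. Genes of a pair share regions, so this sets 2 places side by side rather than separate genes. The order in the polymerase marks rested on wide regions. With regions over 10 kb left out, Pol2-S5p covered 0% of Zic2 and of Zic5 and still 51.6% of Zic1 and 34.8% of Zic4, and Pol2-S7p covered 0% of Zic2 and of Zic5 and still 2.97% of Zic4.

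Bodies fully under a mark were not rare. As much H3K27me3 cover as at Zic1 and Zic2 was found in 13.6% of protein-coding genes, as much as at Zic4 or more in 16.5%, and as much as at Zic5 or more in 21.5%. Full cover by Pol2-S5p was found in 27.5% and by Pol2-S7p in 26.8%. A body touched at all by H3K27me3, as at all 4 members, was found in 46.4% of protein-coding genes, by Pol2-S5p in 73.7% and by Pol2-S7p, as at 3 of the 4, in 67.0%. The median protein-coding gene had 0% of its body under H3K27me3, 13.2% under Pol2-S5p and 5.37% under Pol2-S7p.

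**Figure D3:**
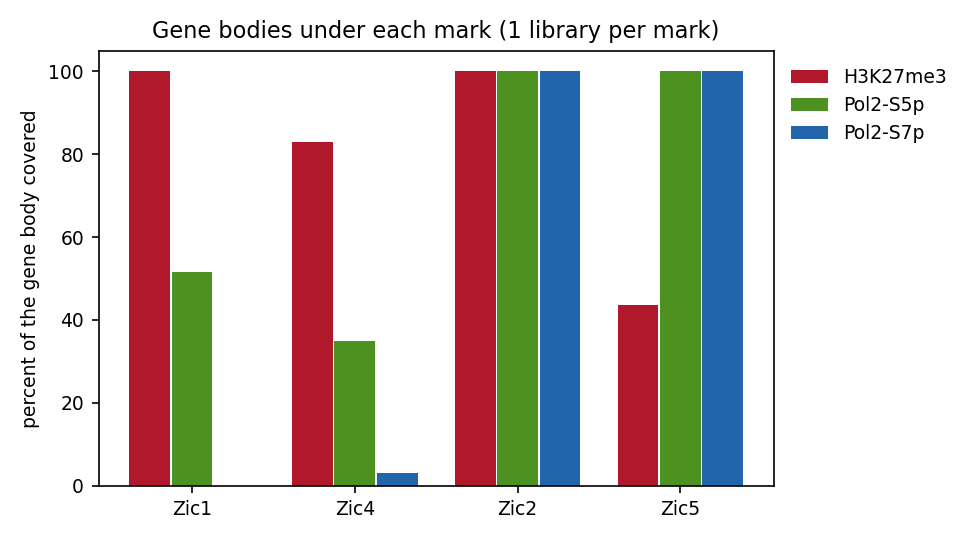
Percent of each gene body, from annotated start to end, under regions of each mark (1 library per mark, no error bars). Both polymerase marks reach 100% at Zic2 and Zic5, while Pol2-S7p stands at 0% at Zic1 and 2.97% at Zic4.

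Taken base by base from one outer gene end to the other, the Zic1 and Zic4 interval of 31291 bp was mostly H3K27me3 without polymerase. H3K27me3 stood alone over 16.3 kb (52.1%) and with Pol2-S5p but not Pol2-S7p over 9.6 kb (30.7%). All 3 marks met over 0.8 kb (2.56%), and 4.6 kb had no mark. No base carried a polymerase mark without H3K27me3.

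The Zic2 and Zic5 interval of 23058 bp was filled with Pol2-S7p. All 3 marks met over 15.9 kb (68.8%), H3K27me3 and Pol2-S7p without Pol2-S5p over 2.2 kb, and both polymerase marks without H3K27me3 over 5.0 kb (21.7%). No base was without a mark. Of the H3K27me3 length in the interval, 87.8% was shared with Pol2-S5p and 100% with Pol2-S7p, while in the Zic1 and Zic4 interval these shares were 39.0% and 3.0%.

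**Figure D4:**
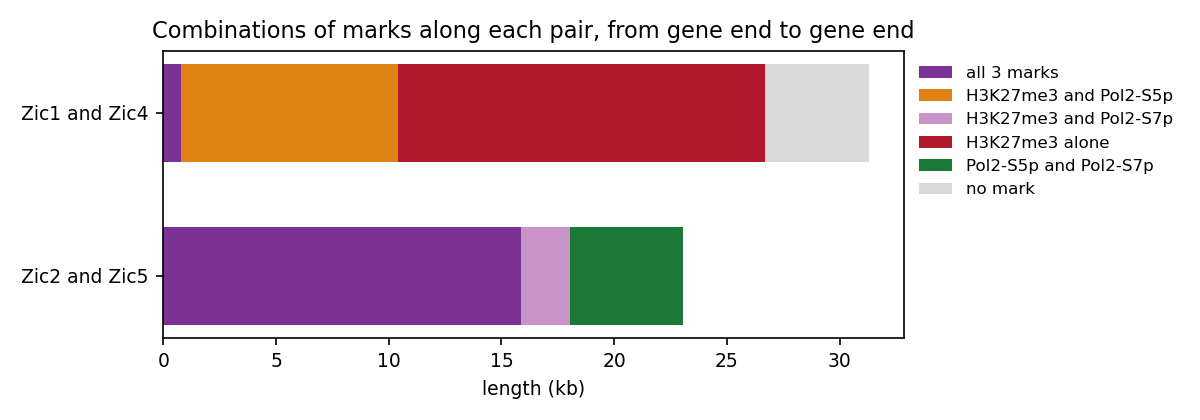
Length in kb of each combination of marks from the outer end of one gene to the outer end of the other. All 3 marks meet over 15.9 kb at Zic2 and Zic5 and over 0.8 kb at Zic1 and Zic4.

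The surroundings differed as well. Over the Zic1 and Zic4 pair and 100 kb on each side, H3K27me3 covered 22.4%, Pol2-S5p 8.04% and Pol2-S7p 1.21%. All of the H3K27me3 there was in the 2 regions that cover the genes. In the flanks, Pol2-S5p regions of 5.4 kb and 1.6 kb lay inside the outer arms of those H3K27me3 regions. The only other polymerase regions were of Pol2-S5p (1.2 kb, score 44.8) and Pol2-S7p (2 kb, score 29.0), which overlapped each other near the edge of the flank, 94859 bp from the pair for Pol2-S7p.

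Around Zic2 and Zic5, H3K27me3 covered 28.7%, Pol2-S5p 33.1% and Pol2-S7p 41.0% of the same kind of stretch. Most of the polymerase lay on the Zic5 side, where 44.2% of the 100 kb carried Pol2-S5p and 61.2% Pol2-S7p. On the Zic2 side the shares were 8.75% and 7.15%. A Pol2-S7p region of 57.8 kb with a low score of 5.79, above 8.82% of the list, made up most of the Zic5 side, and 2 further H3K27me3 regions, of 7 and 20 kb, lay wholly and partly within it.

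The neighbouring genes were read at their own starts. Beside Zic1 and Zic4, the long noncoding RNA gene Gm28652 had no mark, and Gm29478, which starts within the outer end of the 30 kb H3K27me3 region, was PRCr, with 474 bp of its window under Pol2-S5p. No other protein-coding gene lay within 100 kb. Beside Zic5, the protein-coding Gm5089 and an antisense gene of the same symbol were PRCa, as was Clybl, a gene of a mitochondrial lyase whose start lies outside the stretch shown. Between Zic5 and Zic2 the noncoding 2610035F20Rik starts 236 bp from Zic2 in the opposite direction and was PRCa, so the 2 starts share most of their windows.

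On the Zic2 side, Gm10837 in the outer part of the 37.0 kb H3K27me3 region was PRCr. Pcca, which encodes a subunit of propionyl-CoA carboxylase in mitochondria, has its longest transcript starting 35540 bp past that region and was Active. That start was marked by Pol2-S5p of 0.8 kb and Pol2-S7p of 0.6 kb with scores of 48.6 and 52.5, above 94.7% and 96.5% of their lists. These narrow regions scored higher than every polymerase region over the 4 members.

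The third question was how the pairs compare with other gene pairs of the same layout. There were 2700 pairs of neighbouring protein-coding genes that start back to back within 25 kb, by the starts of their longest transcripts. The distance of 3202 bp between Zic1 and Zic4 was longer than in 37.9% of these pairs and that of 9758 bp between Zic5 and Zic2 longer than in 63.0%. H3K27me3 lay at both starts in both Zic pairs and in 28.0% of all such pairs.

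Zic5 and Zic2 had the same state at both starts, as did 67.1% of pairs, and were PRCa at both, as were 15.7%. Zic1 and Zic4, with PRCr at one start and H3K27me3 only at the other, had a combination found in 26 pairs, or 0.963%. By the start used first, chosen by Pol2-S5p cover with a tie settled by Pol2-S7p cover, Zic4 was PRCa and the pair would leave that class.

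Genes related to the members were read the same way. Of the 6 zinc finger relatives of the GLI and GLIS families, 4 carried H3K27me3 (66.7%, against 37.7% of protein-coding genes). Gli1 and Gli3, a target and a repressor of Hedgehog signalling, and Glis1 were PRCa, and Glis3 was PRCr, but PRCa by the start of its longest transcript. Gli2, the main activator of that pathway, and Glis2 were Active, with Pol2-S5p and Pol2-S7p over the whole window and no H3K27me3.

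The 14 regulators of the neural plate border and the neural crest, where ZIC proteins act, all carried H3K27me3 and Pol2-S5p. Among protein-coding genes, 37.7% carried H3K27me3 and 69.9% Pol2-S5p. Of the 14 regulators, 11 were PRCr, against 7.66% of protein-coding genes. These were Pax3, Pax7, Msx1, Msx2, Tfap2a, Tfap2b, Dlx3, Dlx5, Sox9, Sox10 and Snai2. The other 3, Tfap2c, Foxd3 and Gbx2, were PRCa with Pol2-S7p over the whole window. They are 21.4% of the list, near the 23.9% of protein-coding genes in that state. Zic1 thus held the state of most genes on this list. Zic2, Zic4 and Zic5 held a state about as common there as among all protein-coding genes. By the start of its longest transcript, Zic4 had H3K27me3 only, a state of 0 of the 14 regulators and 7.14% of protein-coding genes.

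Likeness of the marks was also measured in 100 steps of 200 bp from 10 kb before to 10 kb after the start with the most Pol2-S5p, which gives 300 values of presence or absence for the 3 marks. Genes within 1 Mb of a member were not ranked against it. Zic1 was most like Sncb, which encodes a synuclein of synapses, Adam33, a protease gene, and Hoxa13, a homeobox gene of limb ends, with 287, 282 and 280 equal values. Zic4 was most like Runx2, the bone regulator (282), Ftcd, a gene of histidine breakdown (279), and Nkx6-1, a homeobox gene of pancreas and motor neurons (279).

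Zic2 was most like Ube2v1 (291) and Cdc34 (289), which act in ubiquitin conjugation, and Ccdc155 (289), a gene of meiotic chromosome movement. Zic5 was most like Gpx2, a glutathione peroxidase gene of the gut (289), Neil2, a DNA repair gene (288), and Nudt18 (288). Within pairs, Zic1 and Zic4 shared 246 values and Zic2 and Zic5 shared 253. Across pairs the count was 146 for Zic1 with Zic2, 111 for Zic1 with Zic5, 120 for Zic4 with Zic2 and 95 for Zic4 with Zic5. The median over all protein-coding genes was 56.3% of the values for Zic1, 61.3% for Zic4, 31.2% for Zic2 and 34.3% for Zic5. The 48.7% that Zic1 and Zic2 shared was therefore below the median of Zic1 and above that of Zic2. The windows of Zic2 and Zic5 overlap over much of their length, and those of Zic1 and Zic4 only at their edges. All values come from the same 3 libraries, so these counts are a description.

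The cell type was checked against markers. Of 8 ESC markers, including Pou5f1 and Nanog, all 8 carried both polymerase marks, against 69.9% of protein-coding genes for Pol2-S5p and 60.4% for Pol2-S7p. Of these, 6 were Active, against 35.9% of protein-coding genes. The other 2, Sox2 and Klf4, were PRCa, or 25% against 23.9%. By the start of its longest transcript, Esrrb had H3K27me3 only. Of 8 markers of feeder fibroblasts, including Col1a1 and Dcn, none carried Pol2-S7p, and Pol2-S5p was found at Thy1 and Twist2, together with H3K27me3. H3K27me3 lay at 4 of these 8 and 4 were Inactive, against 37.7% and 23.5% of protein-coding genes. All 6 neural markers carried H3K27me3, against 37.7% of protein-coding genes, and 4 of them (66.7%) Pol2-S7p as well, near the 60.4% of protein-coding genes.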

How the data were processed

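ChIP-seq libraries were sequenced as single-end reads of 75 bp. The authors mapped reads using Bowtie2 2.3.4.3 on mm10 masked at strain variants, then called regions in each library by Bayesian change-point modelling under default settings. The deposited files give each region's position, its width in bp (an other value) and a score in a unit not given in the sources used here. Scores served here for ranks and for 1 filter. The reads behind each region are unknown, and the library totals were not used here.

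Genes were taken from GENCODE M21 (GRCm38) with coordinates counted from 1. Windows of 2 kb were positive from 1 bp of overlap. Starts were chosen by Pol2-S5p cover, then Pol2-S7p cover, longest transcript by genomic span, and identifier. The study also set a read threshold and left out genes that overlap or start close together, and none of these steps was taken here. Zic1 and Zic4 overlap by 3398 bp, and Zic2 starts 236 bp from 2610035F20Rik. The states given here may therefore cover genes that the study left unclassified, which was not checked. Background shares were taken over 21938 protein-coding genes and are descriptions, since no test was possible. Python 3.11.15, NumPy 2.4.6, SciPy 1.17.1 and Matplotlib 3.10.9 were used. Functions were tested on simulated data, with 1000 of 1000 promoter states recovered. The expected states used the same window and naming rule, so this checks only the overlap lengths and the choice of start.

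The members, the lists and the rules were chosen with earlier results of these data known. Named genes were the members, genes within 100 kb, the listed genes, and the 3 genes most like each member. Window width, region filters, overlap, the start used and flank length were varied. Protein sequences were not used here, and 1 listed gene is not reported here.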

Additional observations from a re-analysis of the deposited data

How the results depend on the processing

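No paired analysis was possible because each mark had 1 library. Counts below are members of 4. With windows of 1 or 4 kb, and with any annotated start counted, the counts of marks and states stayed as reported. Counting any start can only add marks, and H3K27me3 and Pol2-S5p were already at 4 members. Only Pol2-S7p at Zic1 could have changed there. With regions above the median score only, Pol2-S5p and Pol2-S7p were each left at 2 members. Then 2 had H3K27me3 only and 0 were PRCr, and 2, Zic2 and Zic5, stayed PRCa. With regions over 10 kb left out, H3K27me3 was left at 0 members, Pol2-S5p at 2 and Pol2-S7p at 1, with 0 PRCr and 0 PRCa, since every H3K27me3 region over the genes is wider than that. Zic4 was then Active, Zic1 had Pol2-S5p only, and Zic2 and Zic5 were Inactive. When at least 50% of the window had to be covered, Pol2-S7p was left at 2 and 2 were PRCa. The PRCr members then numbered 2, Zic4 among them. By the start of the longest transcript, 1 had H3K27me3 only (Zic4). Bodies touched by Pol2-S5p and by Pol2-S7p each numbered 2 with regions above the median score. With regions over 10 kb left out, bodies touched numbered 0 for H3K27me3, 2 for Pol2-S5p and 1 for Pol2-S7p, all of them Zic1 or Zic4, so the order of the pairs in both polymerase marks turned round.

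Cover of the surroundings of Zic1 and Zic4 with 50 and 250 kb on each side was 39.5% and 9.75% for H3K27me3 and 13.3% and 3.69% for Pol2-S5p. Pol2-S7p covered 0.609% and 0.856%, both below its 1.21% at 100 kb. For Zic2 and Zic5 it was 49.2% and 16.1% for H3K27me3. Pol2-S5p covered 49.6% and 20.6% there, and Pol2-S7p covered 61.8% and 20.5%. With regions above the median score and 100 kb, Pol2-S5p covered 0.519% at Zic1 and Zic4 and 16.0% at Zic2 and Zic5, where Pol2-S7p covered 14.3%. Region lists without reads or replicates cannot show how sure a region edge is.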
